A study of Homo sapiens with 9 samples.

Results

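The control arm of a knockdown experiment in HCT116 cells was described here on its own, as the baseline transcriptome of that line. HCT116 is an established human colorectal carcinoma cell line that grows as an adherent epithelial culture. The libraries were the 3 of 9 in the series labelled NC (negative control), and they were chosen by their label alone. NC cells grew in McCoy's 5A medium with bovine serum and received a negative control siRNA by lipid transfection before total RNA was taken with Trizol, so they are transfected cells and not untreated ones. The other 6 libraries carried siRNAs against the long noncoding RNA LINC00857. They were used only to check the labels, for which LINC00857 had 416 to 522 counts in the NC libraries and 163 to 239 counts in the other 6. Separate cultures are not stated for the 3 NC libraries, so the spread between them may be technical. In bulk RNA, fewer cells that express a gene and less RNA of that gene per cell cannot be told apart.

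The lining of the colon is renewed from crypt stem cells, which are held in the dividing state by Wnt signalling, and whose daughters mature into absorptive colonocytes, mucus-secreting goblet cells and rarer secretory types. Simple epithelia of this kind are built on keratins 8, 18 and 19, and caudal-type homeobox factors set their intestinal character. HCT116 is known for activating mutations in PIK3CA and CTNNB1 and for deficient mismatch repair, which leaves many repeat tracts mutated. The deposited counts hold no sequence, so none of these mutations was examined.

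The NC libraries held 55576276, 54242901 and 55790505 counts. A level is given here in CPM, the counts of a gene per 1000000 counts of the library, which suits 1 gene across libraries. To set one gene beside another, TPM was used, in which counts are also divided by the exon length of the gene and scaled to the same sum. A gene was called detected when it had at least 1 CPM in each of the 3 libraries. Of 35817 listed genes, 14077 (39.3%) were detected, and of 17061 listed protein-coding genes 12229 (71.7%) were. The protein-coding genes that lay nearest to the limit were NRXN2, with 1.03, 1.05 and 1.00 CPM, and THAP8, with 2.02, 1.88 and 1.00 CPM, just inside it, and LAG3 (1.44, 0.996 and 1.09 CPM) and IL18R1 (2.16, 0.996 and 1.88 CPM) just outside. The limit fell between the libraries for 604 protein-coding genes, which had at least 1 CPM in some of them and less in the rest. No count at all was recorded in any NC library for 1092 protein-coding genes (6.40% of those listed). Every listed gene had a count somewhere in the 9 libraries, so genes named below as having no row were not analysed here. The 71.7% and 6.40% set beside the lists below are shares of listed genes. Genes without a count in any of the 9 libraries are in neither.

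The counts were concentrated on few genes. The 10 most abundant took 9.44% of all counts, the 100 most abundant 22.9% and the 1000 most abundant 50.6%. The share on the 10 highest genes ran from 9.34% to 9.49% among libraries. Nearly all counts (96.4%) lay on protein-coding genes. Genes of the mitochondrial genome took 10.0% to 10.2% of the counts of a library, and 9 of the 10 genes of highest CPM were mitochondrial, namely MT-CO1, MT-ND4, MT-ATP6, MT-CO3, MT-RNR2, MT-CO2, MT-ND5, MT-ATP8 and MT-ND2. The highest of them was MT-CO1, a subunit of the last respiratory complex, with 15523, 15390.0 and 15592 CPM. MT-ND4, MT-ATP6, MT-CO3 and MT-ATP8 overlap other listed genes on the same strand, so their levels and ranks can include or lack reads of those neighbours. EEF1A1, which delivers aminoacyl tRNA to the ribosome, was the highest nuclear gene by CPM, at 9386 ± 132 CPM (mean ± SD, n = 3 libraries, as for every value given in this form).

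Per length, the 10 highest nuclear protein-coding genes were EEF1A1, the cytoplasmic actin ACTG1, the chaperone HSP90AB1, the actin-binding peptide TMSB10, the glycolytic enzyme GAPDH, the iron-storage subunit FTL, the chromatin protein HMGA1, the chaperone HSP90AA1, the membrane-to-actin linker EZR and the ribosomal protein RPS2. EEF1A1 stood at 4516 ± 82.2 TPM and RPS2 at 1746 ± 63.6 TPM. Within that order ACTG1 (4124 ± 20.2 TPM) and HSP90AB1 (3914 ± 10.2 TPM) were apart by more than their SDs, whereas HSP90AB1 and TMSB10 (3839 ± 128 TPM) were not. HMGA1 had 1856 ± 20.5 TPM and HSP90AA1 1829.7 ± 6.20 TPM. The median of protein-coding genes was 9.39 TPM, the 90th percentile 66.6 TPM and the 99th percentile 366 TPM, and these mark how high any value below stands.

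**Figure D1:**
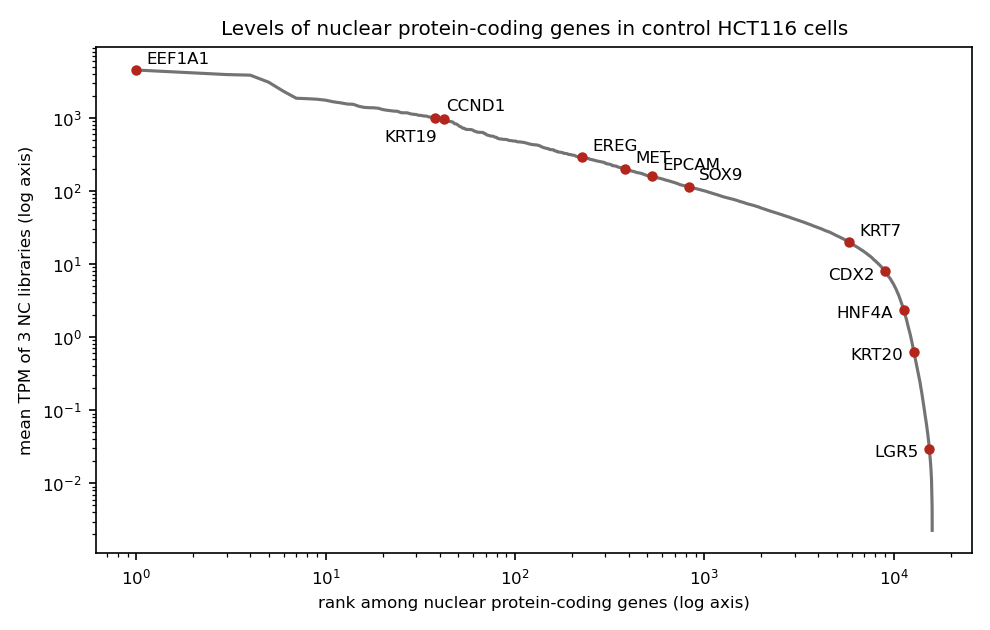
Mean TPM of the 3 NC libraries (log axis) against rank among nuclear protein-coding genes (log axis), with genes named in the text as red points. CCND1 and KRT19 sit near 1000 TPM, while KRT20 and LGR5 lie far below the median of 9.39 TPM.

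Keratin expression was that of a simple epithelium and was held by 3 genes. KRT8, the type II keratin of simple epithelia, had 1972, 1878 and 1910.2 CPM. Its type I partners KRT18 and KRT19 had 803, 749 and 780.1 CPM and 793, 759 and 781 CPM. In TPM the order was KRT19 (953 ± 27.5), KRT8 (798 ± 24.7) and KRT18 (691 ± 28.5), and all 3 lay above the 99th percentile of protein-coding genes. The lead of KRT19 over KRT8 depended on the gene length used, since with the longest annotated transcript in place of all exons KRT8 led (KRT19 minus KRT8 was -257 TPM, against 154 TPM with all exons).

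The other keratins were far lower. Of 36 keratin genes with a row, 10 were detected, 21 had counts but missed the limit and 5 had none, against 71.7% detected among all protein-coding genes. The remaining detected members were KRT10 (28.7 ± 1.79 TPM), KRT7 (19.97 ± 0.687 TPM), KRT15 (16.6 ± 1.31 TPM), KRT80, KRT222, KRT23 and KRT81, the last at 5.83 ± 0.922 TPM. KRT7 came to 37.6 TPM with the longest transcript. It is a keratin of glandular and ductal epithelia and KRT10 a keratin of cornifying skin. KRT20, the keratin of mature colonocytes, had 6, 27 and 34 counts, or 0.108, 0.498 and 0.609 CPM, under the limit in every library. KRT14 and KRT5, the pair of basal squamous cells, had 0 counts and 0, 0 and 6 counts. KRT15 and KRT222 overlap the exons of other listed genes, and their reads cannot be separated from those of the neighbours.

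The core epithelial programme was nearly complete. Of 31 genes of this list, 30 were detected (96.8%, beside 71.7% of all protein-coding genes). In the highest 10% of protein-coding genes by TPM lay 14 of them. EPCAM, the adhesion molecule of simple epithelia, had 147, 135 and 136 CPM, and its level per length was 158 ± 8.39 TPM. The desmosomal proteins JUP (129 ± 2.19 TPM) and DSP (109 ± 2.23 TPM), the tight junction proteins CLDN4 (93.4 ± 4.14 TPM) and TJP1 (60.2 ± 0.967 TPM) and the surface protease ST14 (97.9 ± 2.23 TPM) with its inhibitors SPINT2 (135 ± 7.75 TPM) and SPINT1 (82.6 ± 1.89 TPM) followed. CDH1, which encodes E-cadherin, had 50.5, 53.3 and 55.4 CPM and 24.6 ± 1.12 TPM, between the median and the 90th percentile. The splicing regulators ESRP1 (44.7 ± 0.346 TPM) and ESRP2 (28.4 ± 1.82 TPM), which keep epithelial isoforms, were detected too. OVOL2, a repressor of mesenchymal genes, was the exception, with 31, 50 and 32 counts.

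Part of the mesenchymal list was also detected, 10 of 17 genes with a row (58.8%, beside 71.7% of all protein-coding genes). S100A4, a calcium-binding protein of motile cells, was the only member in the highest 10%, at 237 ± 7.94 TPM. VIM, the intermediate filament of mesenchymal cells, had 12.1, 13.5 and 13.3 CPM and 7.18 ± 0.373 TPM, and the repressors of CDH1 were at 16.7 ± 1.46 TPM for SNAI1, 5.62 ± 0.634 TPM for ZEB1 and 2.25 ± 0.268 TPM for TWIST1. N-cadherin (CDH2) had 0, 6 and 0 counts, ZEB2 had 4, 0 and 0 counts, and PRRX1 and POSTN had none.

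**Figure D2:**
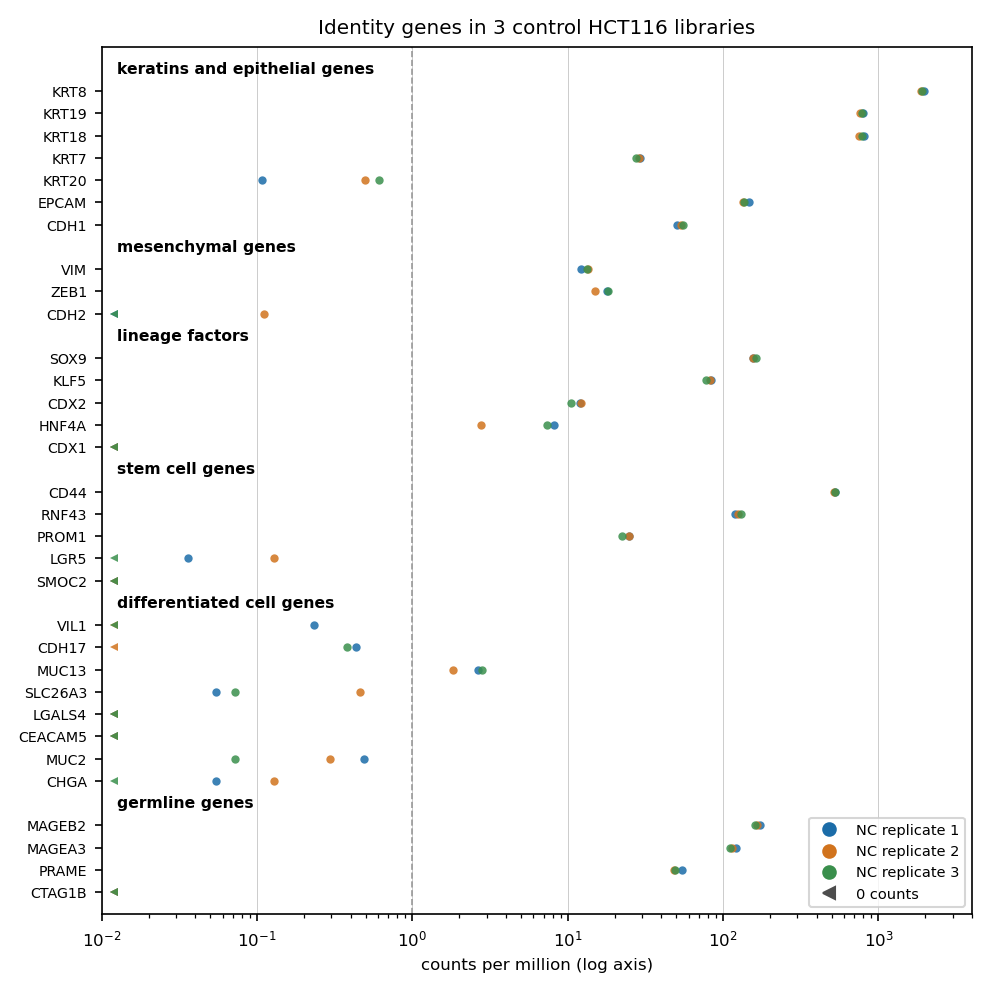
CPM of identity genes (log axis) in each of the 3 NC libraries, 1 point per library and a triangle at the left edge for 0 counts, with the dashed line at 1 CPM. KRT8, KRT18 and KRT19 lie between 749 and 1972 CPM, whereas CDX1, LGALS4 and CEACAM5 have 0 counts in every library.

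Transcription factors of the gut covered a wide range of levels. Of 29 factors with a row 19 were detected (65.5%, beside 71.7% of all protein-coding genes), and only SOX9 lay in the highest 10%. SOX9, a factor of crypt base cells, had 155, 155 and 163 CPM and 115 ± 3.67 TPM. TCF7L2, the Wnt effector of colon, stood at 66.0 ± 1.06 TPM, KLF5, a factor of dividing crypt cells, at 59.5 ± 2.22 TPM, MYRF at 38.2 ± 1.34 TPM, ELF3 at 18.2 ± 0.165 TPM and KLF4, a factor of maturing cells, at 17.3 ± 2.15 TPM. VDR and PPARG, nuclear receptors, had 10.9 ± 1.02 TPM and 10.6 ± 0.695 TPM, and MYB, a factor of crypt progenitors, 1.25 ± 0.391 TPM. CDX2, the homeobox factor that defines intestinal fate, had 664, 659 and 582 counts (11.9, 12.1 and 10.4 CPM) and 7.99 ± 0.631 TPM, just under the protein-coding median. HNF4A, a nuclear receptor of gut and liver, had 452, 150 and 408 counts, so that its level in NC replicate 2 was well under that in the other libraries. CDX1 had 0 counts in all 3 libraries. GATA4, GATA5, SOX17 and the stem cell factor ASCL2 had no row.

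Anterior and posterior identity was read from the HOX genes, whose order along the chromosome follows the body axis. Of 37 with a row 25 were detected (67.6%, beside 71.7% of all protein-coding genes), none lay in the highest 10%, and the 5 of highest TPM belonged to the A and B clusters. HOXA9 stood at 63.4 ± 0.986 TPM, HOXB8 at 62.1 ± 0.608 TPM, HOXB6 at 59.6 ± 2.04 TPM, HOXB7 at 55.2 ± 4.30 TPM and HOXB9 at 31.9 ± 2.16 TPM. These levels overlapped within their SDs from HOXA9 to HOXB8, from HOXB8 to HOXB6 and from HOXB6 to HOXB7. HOXB13, the B cluster gene of hindgut and prostate, was at 9.17 ± 0.276 TPM and HOXA13 at 4.63 ± 0.529 TPM. In the D cluster only HOXD8 was detected, at 2.54 ± 0.374 TPM, whereas HOXD10 had 4, 0 and 8 counts and HOXD1 and HOXD9 had none. HOXA9, HOXB6 and several other members overlap neighbouring genes on the same strand, so their values can include or lack reads of those neighbours.

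Of 18 stem cell genes with a row 15 were detected (83.3%, beside 71.7% of all protein-coding genes), and the list median of 9.45 TPM was close to the protein-coding median of 9.39 TPM. CD44, a hyaluronan receptor and Wnt target, had 525, 516 and 527 CPM and 149 ± 2.70 TPM, and the polycomb gene BMI1 had 63.9 ± 2.33 TPM. RNF43 (47.6 ± 2.23 TPM) and ZNRF3 (12.9 ± 0.805 TPM), which remove Wnt receptors from the surface, were detected, as were PROM1 (9.20 ± 0.521 TPM), EPHB2 (6.33 ± 0.170 TPM) and TERT, the telomerase subunit, at 7.81 ± 0.665 TPM. RNF43 and PROM1 overlap other listed genes on the same strand, so their values can include or lack reads of those neighbours. LGR5, the R-spondin receptor of crypt base stem cells, had 2, 7 and 0 counts and SMOC2 had none. OLFM4 and ASCL2 had no row.

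Genes of differentiated colon were mostly under the limit. Of 25 genes of absorptive colonocytes with a row, 6 were detected (24.0%, beside 71.7% of all protein-coding genes). Another 13 had counts but missed the limit and 6 had 0 counts, and no member reached the highest 10%. CA2, a carbonic anhydrase, was the highest at 20.3 ± 0.962 TPM, followed by the sulphate transporter SLC26A2 (9.29 ± 0.223 TPM), USH1C (7.57 ± 0.770 TPM) and DPP4 (5.07 ± 0.707 TPM). VIL1, the microvillus actin bundler, had 13, 0 and 0 counts, the liver-intestine cadherin CDH17 had 24, 0 and 21 counts, and the chloride exchanger SLC26A3 had 3, 25 and 4 counts. CA1, AQP8, MS4A12, CEACAM5, LGALS4 and PHGR1 had 0 counts in every library. FABP1, GUCA2A, CEACAM6 and the other 6 genes of the list had no row.

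Secretory lineages gave the same picture. Among 11 goblet cell genes with a row, KLK1 and FCGBP were detected (18.2%, beside 71.7% of all protein-coding genes), at 1.75 ± 0.197 and 1.33 ± 0.178 TPM. The gel-forming mucin MUC2 had 27, 16 and 4 counts, the goblet factors SPDEF and ATOH1 had 8, 8 and 10 counts and 22, 0 and 5 counts, and AGR2, which folds mucins, had none. Of 12 enteroendocrine, tuft and Paneth cell genes with a row, 3 were detected (25%, beside 71.7% of all protein-coding genes). They were DCLK1 (1.48 ± 0.207 TPM), AVIL (1.11 ± 0.0828 TPM) and SYP (0.722 ± 0.0699 TPM). Another 11 genes of this list had no row. CHGA, the granule protein of endocrine cells, had 3, 7 and 0 counts and CHGB had none.

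CpG, the dinucleotide at which DNA is methylated in human cells, was counted in promoters of 4 genes with 0 counts and of CDX2. The 4 were chosen after their values were seen and do not stand for genes with 0 counts in general. Shown here are 250 bases before the RefSeq start (GRCh38.p14) of CDX2, which was expressed, of CHFR and BCAT1, genes with 0 counts from a list often methylated in colorectal cancer, and of CEACAM5 and LGALS4, genes of mature colonocytes with 0 counts, each 5′ to 3′ with every CG in capitals.
CDX2: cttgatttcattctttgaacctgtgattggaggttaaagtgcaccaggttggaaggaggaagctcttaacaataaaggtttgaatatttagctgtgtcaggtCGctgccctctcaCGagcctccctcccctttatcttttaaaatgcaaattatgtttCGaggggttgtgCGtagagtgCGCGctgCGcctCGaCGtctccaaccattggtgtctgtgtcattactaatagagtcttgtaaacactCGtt
CHFR: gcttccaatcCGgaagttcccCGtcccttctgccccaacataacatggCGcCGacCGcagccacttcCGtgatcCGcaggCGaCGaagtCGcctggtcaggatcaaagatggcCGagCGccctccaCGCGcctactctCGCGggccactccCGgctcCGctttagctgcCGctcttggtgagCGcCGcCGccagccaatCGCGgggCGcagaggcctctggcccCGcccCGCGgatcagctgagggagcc
BCAT1: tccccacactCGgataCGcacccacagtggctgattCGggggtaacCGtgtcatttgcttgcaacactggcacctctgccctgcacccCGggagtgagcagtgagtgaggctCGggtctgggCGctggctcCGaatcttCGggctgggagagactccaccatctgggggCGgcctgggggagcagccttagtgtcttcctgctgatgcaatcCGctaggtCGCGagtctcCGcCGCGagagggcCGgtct
CEACAM5: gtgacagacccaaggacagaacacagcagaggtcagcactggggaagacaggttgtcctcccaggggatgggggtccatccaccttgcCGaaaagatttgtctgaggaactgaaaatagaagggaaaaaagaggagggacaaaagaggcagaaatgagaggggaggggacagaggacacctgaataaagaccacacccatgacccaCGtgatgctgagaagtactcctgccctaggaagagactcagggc
LGALS4: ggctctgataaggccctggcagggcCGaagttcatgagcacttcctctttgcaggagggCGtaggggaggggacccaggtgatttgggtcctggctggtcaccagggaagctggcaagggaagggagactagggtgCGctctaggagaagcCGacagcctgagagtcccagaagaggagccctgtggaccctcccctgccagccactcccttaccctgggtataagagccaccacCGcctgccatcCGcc
The CDX2 window (chr13:27969316-27969565, minus strand) held 10 CpG, a ratio of 0.785. The CHFR window (chr12:132887606-132887855, minus strand) held 28 CpG, a ratio of 0.972. The BCAT1 window (chr12:24949102-24949351, minus strand) held 17 CpG, a ratio of 0.657. The CEACAM5 window (chr19:41708376-41708625, plus strand) held 2 CpG, a ratio of 0.118. The LGALS4 window (chr19:38812946-38813195, minus strand) held 6 CpG, a ratio of 0.241. Of 27303 windows of this length in the RefSeq table, 47.4% had a ratio of at least 0.6, and the median window held 11 CpG. The ratio is the CpG number over that expected from the C and G content. Methylation was not measured in these libraries, and the windows are given as a description. CHFR, a mitotic checkpoint ubiquitin ligase, shares exon positions with GOLGA3 on the same strand, which had 5935, 6062 and 6387 counts, and with ZNF605, which had 0 counts as well. KRT18, KRT19, CDX1, VIL1, CCND2 and LGR5 have no entry in the table.

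The list of genes often methylated in colorectal cancer was detected at 18 of 36 with a row (50%, beside 71.7% of all protein-coding genes). In this list 7 members had 0 counts. These 7 were SFRP1, SFRP2, CDX1, CHFR, SDC2, BCAT1 and EFEMP1. The share of zeros in this list can be read beside the 6.40% of all protein-coding genes. Another 11 genes of the list had no row and are in neither count. At the other end SEPTIN9, whose methylated promoter is used as a blood test, had 369, 368 and 373 CPM and 82.5 ± 0.928 TPM, and the DNA translocase HLTF had 53.8 ± 1.93 TPM. CDKN2A, which encodes a cell cycle inhibitor, had 19.3 ± 0.542 TPM, MGMT, which repairs alkylated guanine, 3.72 ± 0.315 TPM and VIM 7.18 ± 0.373 TPM. TFPI2 (0, 10 and 21 counts) and ESR1 (16, 13 and 13 counts) were under the limit.

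Surface and adhesion genes were detected at 49 of 58 with a row (84.5%, beside 71.7% of all protein-coding genes), and 19 lay in the highest 10%. The highest per length were the integrin subunit ITGB1 (327 ± 1.12 TPM), the immunoglobulin protein BSG (263 ± 3.35 TPM), the ephrin receptor EPHA2 (263 ± 2.82 TPM), the transferrin receptor TFRC (249.9 ± 3.79 TPM), the integrin subunit ITGB4 (216 ± 3.39 TPM), the tetraspanin CD63 (178 ± 10.7 TPM), the laminin receptor subunit ITGA6 (159 ± 1.19 TPM) and EPCAM. BSG and EPHA2 did not differ beyond their SDs, nor did EPCAM and either of its neighbours ITGA6 and ITGA3 (157 ± 0.363 TPM). ITGA6 and ITGB4 encode the subunits of a single laminin receptor of hemidesmosomes. CEACAM5, the carcinoembryonic antigen, had 0 counts in all 3 libraries, and GPA33, the A33 antigen of colon, had 17, 8 and 8 counts. PTPRC and CD34, surface genes of blood cells, had 0, 4 and 0 counts and none.

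Of 18 antigen presentation genes 12 were detected (66.7%, beside 71.7% of all protein-coding genes). The class I heavy chains HLA-C (206 ± 6.27 TPM) and HLA-B (78.8 ± 6.34 TPM) and the light chain B2M (119.8 ± 2.69 TPM) were in the highest 10%, with reads of the related HLA genes possibly shared among them. The peptide transporters TAP1 (30.9 ± 1.97 TPM) and TAP2 (46.6 ± 0.590 TPM) were detected. PSMB8, an immunoproteasome subunit, had 14, 27 and 4 counts, and PSMB9 had 222, 162 and 158 counts. The class II genes HLA-DRA (57, 31 and 29 counts), HLA-DRB1 (73, 45 and 32 counts) and CD74 (22, 24 and 8 counts) missed the limit, as did HLA-DPA1 and HLA-DPB1. HLA-DMA, which helps to load class II molecules, passed it with 285, 261 and 297 counts, and so did CIITA, the class II regulator, with 333, 265 and 329 counts. Per length CIITA was at 0.771 ± 0.0893 TPM, under the protein-coding median, and it overlaps another listed gene on the same strand. CD274, which encodes the checkpoint ligand PD-L1, had 3.40, 3.17 and 4.50 CPM.

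Ligands were led by those of the EGF receptor family. Of 50 growth factor and cytokine genes with a row 32 were detected (64.0%, beside 71.7% of all protein-coding genes), and 5 lay in the highest 10%. EREG (epiregulin) had 569, 582 and 580.3 CPM and 289 ± 2.50 TPM, and AREG (amphiregulin) had 121, 124 and 119 CPM and 211 ± 3.31 TPM. The stress cytokine GDF15 (159.5 ± 10.99 TPM), the cytokine LIF (98.3 ± 6.54 TPM) and BMP4 (71.4 ± 2.18 TPM) made up the other high members, and TGFA stood at 61.2 ± 1.24 TPM. EGF itself was near the limit with 78, 85 and 74 counts. The fibroblast growth factor FGF19 had 23.1 ± 2.81 TPM, VEGFA 12.8 ± 0.5997 TPM and IGF2 11.5 ± 1.04 TPM. IL6, IGF1 and VEGFC had 0 counts, and the chemokine CXCL8 had 189, 144 and 82 counts. HGF, the ligand of MET, and BMP2 had no row.

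Of 47 receptor tyrosine kinases with a row 30 were detected (63.8%, beside 71.7% of all protein-coding genes) and 7 had 0 counts, beside 6.40% of all protein-coding genes. Those of highest TPM were EPHA2, MET (201 ± 7.03 TPM), AXL (91.6 ± 1.13 TPM), the collagen receptor DDR1 (72.3 ± 0.855 TPM), EGFR (55.0 ± 1.40 TPM), PTK7 (43.5 ± 2.55 TPM), EPHB4 (42.8 ± 0.644 TPM) and MST1R (39.8 ± 1.46 TPM). MET had 484, 486 and 513 CPM and EGFR 233, 249 and 239.8 CPM, and neither overlapped in TPM with its neighbours in that order. PTK7 and EPHB4 did not differ beyond their SDs. Within the EGF receptor family, ERBB2 had 23.5 ± 1.16 TPM, ERBB3 10.3 ± 0.483 TPM and ERBB4 11, 0 and 0 counts. KIT, PDGFRA, KDR, TEK, EPHA7, NTRK3 and MUSK had 0 counts.

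All 47 RAS, MAPK and PI3K pathway genes with a row were detected, beside 71.7% of all protein-coding genes. The small GTPase gene NRAS had 78.8 ± 5.03 TPM and HRAS 57.97 ± 4.25 TPM. Downstream, MAP2K1 had 65.9 ± 3.01 TPM and BRAF 7.24 ± 0.186 TPM. Genes that are induced by the pathway, its feedback inhibitors included, differed in level. Those of highest TPM were the AP-1 subunit FOSL1 (235 ± 2.65 TPM), the phosphatases DUSP5 (195 ± 2.81 TPM), DUSP4 (97.2 ± 2.20 TPM) and DUSP6 (80.5 ± 0.108 TPM), PHLDA1 (158 ± 2.37 TPM) and SPRY4 (66.1 ± 3.52 TPM), while ETV1 had 13.3 ± 0.247 TPM and the feedback inhibitors SPRY2 and SPRY1 had 7.29 ± 1.53 TPM and 3.58 ± 0.503 TPM, under the protein-coding median. PIK3CA, the catalytic subunit of PI3K, had 9.71 ± 0.427 TPM. The regulatory subunit PIK3R2 was uneven, with 50.2, 103 and 98.0 CPM, and the gene AC007192, which overlaps it, had 85.3, 9.27 and 1.38 CPM, high where PIK3R2 was low.

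Wnt signalling genes were detected at 47 of 74 with a row (63.5%, beside 71.7% of all protein-coding genes), and 7 lay in the highest 10%, so neither share stood far from that of all genes. CTNNB1, which encodes beta-catenin, had 344, 345 and 340.0 CPM and 82.3 ± 0.531 TPM, which became 162 TPM with the length of the longest transcript. APC, which marks beta-catenin for destruction, had 16.5 ± 0.623 TPM and GSK3B, its kinase, 40.5 ± 1.47 TPM. Of the ligands, WNT16 had the highest level, at 64.3, 66.7 and 59.1 CPM and 55.6 ± 3.21 TPM, well above WNT10B (11.5 ± 0.431 TPM), WNT9A (8.97 ± 1.06 TPM) and WNT7B (6.68 ± 0.488 TPM). WNT5A had 0 counts. FZD6 (49.4 ± 2.37 TPM) led the receptors, with the co-receptors LRP5 at 45.3 ± 1.49 TPM and LRP6 at 17.3 ± 1.30 TPM.

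Targets and inhibitors of Wnt signalling differed widely in level. CCND1, a cyclin of the early cell cycle, had 1681, 1705 and 1723 CPM and 1009 ± 12.3 TPM, the highest of the list, and MYC had 154 ± 2.37 TPM. AXIN2 had 15.7 ± 0.587 TPM, NKD1 5.64 ± 0.125 TPM and SP5 160, 78 and 106 counts, while LEF1 had 12, 0 and 0 counts. Among secreted inhibitors, DKK1 had 176, 179.8 and 174 CPM and 229 ± 2.42 TPM and NOTUM 8.98 ± 1.91 TPM, whereas SFRP1 and SFRP2 had 0 counts and SFRP4 and SFRP5 had 0, 0 and 5 counts and 0, 0 and 4 counts. WIF1 and DKK2 had no row.

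In the TGF-beta and BMP pathway 24 of 27 genes were detected (88.9%, beside 71.7% of all protein-coding genes). The receptor gene TGFBR2 had 64.5, 60.9 and 65.0 CPM and 38.6 ± 1.62 TPM, TGFBR1 17.2 ± 1.18 TPM and ACVR2A 6.15 ± 0.495 TPM. SMAD3 stood at 58.3 ± 0.375 TPM and the shared partner SMAD4 at 19.8 ± 0.822 TPM. The BMP target ID1 was the highest member, at 234 ± 13.8 TPM, followed by ID2 (79.7 ± 4.98 TPM). The BMP antagonist GREM1 had 0 counts and NOG had 26, 15 and 14 counts.

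**Figure D3:**
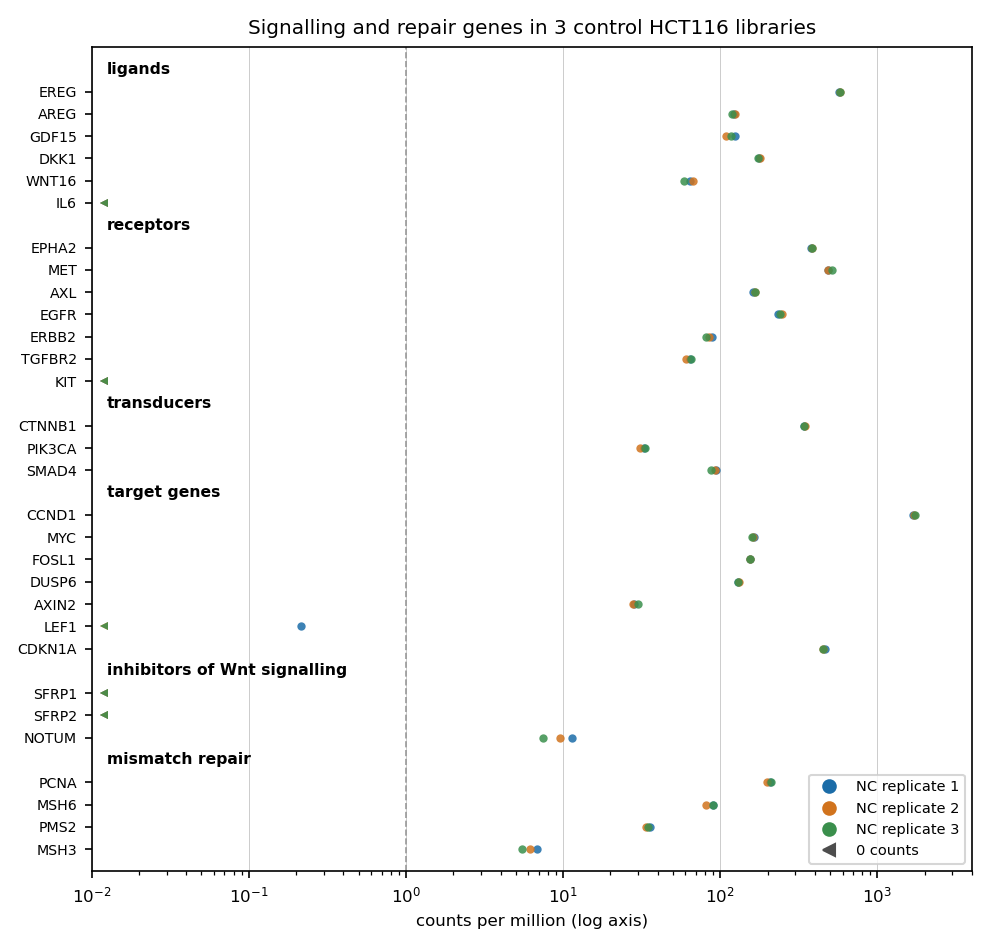
CPM of signalling and mismatch repair genes (log axis) in each of the 3 NC libraries, 1 point per library and a triangle at the left edge for 0 counts, with the dashed line at 1 CPM. CCND1 and EREG are far to the right, and MSH3 lies between 5.48 and 6.78 CPM, below PMS2 and MSH6.

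All 23 genes of the DNA damage response and of cell cycle inhibition were detected, beside 71.7% of all protein-coding genes. CDKN1A, which encodes the cell cycle inhibitor p21, had 464, 449.9 and 449 CPM and 426 ± 9.75 TPM, above the 99th percentile. TNFRSF10B, a death receptor, had 149 ± 0.210 TPM, FDXR 88.5 ± 4.48 TPM, MDM2, a ubiquitin ligase, 68.7 ± 1.98 TPM and BAX, a pore-forming apoptosis protein, 61.5 ± 2.36 TPM. CDKN1C was the lowest at 5.69 ± 0.861 TPM.

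Most proliferation genes were high. Of 30 genes, 29 were detected (96.7%, beside 71.7% of all protein-coding genes), and 23 lay in the highest 10%. MKI67, a marker of cycling cells, had 923, 937 and 907 CPM and 206 ± 2.57 TPM, and the sliding clamp PCNA had 400.2 ± 13.2 TPM. CCNB1 (238 ± 12.6 TPM), the helicase subunit MCM7 (221 ± 3.64 TPM), TYMS (201 ± 7.61 TPM), MCM3 (186 ± 5.38 TPM) and RRM2 (179 ± 1.102 TPM) followed. CCND2 had 0 counts in every library, beside 24.3 ± 1.36 TPM for CCND3 and the very high level of CCND1.

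All 12 mismatch repair genes were detected, beside 71.7% of all protein-coding genes, and MSH3 was the lowest. MSH3, which serves in the recognition of larger loops, had 377, 333 and 306 counts, or 6.78, 6.14 and 5.48 CPM, and 3.73 ± 0.402 TPM. MSH6 (22.7 ± 1.46 TPM), which serves in the recognition of single mismatches, and PMS2 (25.3 ± 0.966 TPM) were both higher than MSH3, with no overlap between libraries.

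Of 31 cancer-testis genes with a row, which are normally limited to the germline, 8 were detected (25.8%) and 7 had 0 counts. Among all protein-coding genes 71.7% were detected and 6.40% had 0 counts. MAGEB2 had 172, 166 and 160.0 CPM and 295 ± 11.1 TPM and MAGEA3 121, 114 and 111 CPM and 185 ± 8.88 TPM. MAGEA2 had 55.8 ± 3.77 TPM and MAGEA6 9.46 ± 0.896 TPM, but MAGEA3 and MAGEA6 are near-identical copies and the share of reads given to each is uncertain. PRAME stood at 38.4 ± 2.64 TPM, and PBK (145 ± 2.44 TPM) and TTK (43.3 ± 1.58 TPM) are kinases of dividing cells that are also in this list. CTAG1B and CTAG2, the NY-ESO family, had 0 counts, and MAGEC1 had 0, 8 and 7 counts.

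Markers of other cell types were low, with a few exceptions. Each of these marker lists had a smaller share detected than the 71.7% of all protein-coding genes. None of 13 immune markers and none of 6 erythroid markers with a row was detected, and their summed levels were 2.98 to 4.07 CPM and 0.83 to 1.94 CPM per library. Of 9 fibroblast markers COL1A1 alone was detected, at 36.0, 33.8 and 41.5 CPM, while its chain partner COL1A2 had 0 counts. ESAM (6.59, 5.62 and 7.04 CPM) was the single endothelial marker of 7, and DES (5.43, 4.04 and 5.02 CPM) the single muscle marker of 8. The liver list had 2 of 9, CPS1, a urea cycle enzyme, at 48.9, 40.6 and 48.7 CPM and SERPINA1 at 4.48, 4.37 and 5.61 CPM, with ALB at 5, 4 and 0 counts. Neuronal and glial markers had the largest share detected among these lists, 5 of 10, which was still under the 71.7% of all protein-coding genes. TUBB3, a neuronal tubulin, had 102, 95.2 and 94.5 CPM, the synaptic calcium sensor SYT1 77.0, 77.5 and 78.7 CPM, MBP 43.5, 41.4 and 45.0 CPM, MAP2 7.68, 7.25 and 8.32 CPM and RBFOX3 1.12, 1.70 and 1.38 CPM. Of the 5 members that were not detected, GFAP, SOX10 and NEFL stayed at 7 counts or fewer in every library. TUBB3 and MBP overlap other listed genes on the same strand, whereas SYT1 does not. Of 14 markers of lung, thyroid, prostate, breast and squamous epithelium 2 were detected, PAX8 at 10.0, 10.4 and 6.27 CPM among them.

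The 3 libraries were close to each other for abundant genes and less so for rare ones. Over the 14077 detected genes, Pearson's r of log2(CPM + 1) between libraries was 0.994 for each pair, given across genes, which are not independent replicates. Between 62.7% and 63.2% of genes agreed within 1.1-fold in a pair of libraries, and 121 to 141 genes (0.860% to 1.00%) differed by more than 2-fold. The coefficient of variation (CV, the SD over the mean of the 3 libraries) had a median of 5.84%. Its median was 19.1% for genes of 1 to 3 CPM, 12.7% for 3 to 10 CPM, 7.24% for 10 to 30 CPM, 4.23% for 30 to 100 CPM, 2.63% for 100 to 300 CPM, 1.78% for 300 to 1000 CPM and 1.53% above. Counting error alone would give a median of 9.56% in the lowest class and 0.335% in the highest, so the median spread exceeded it in both classes. The common biological coefficient of variation (BCV) of edgeR, which is the spread left after counting error, was 10.0%. It was 6.03% for genes with at least 10 CPM in every library and 31.3% with no limit on low counts.

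Single genes departed from the median of their class. EREG varied by 1.23%, CCND1 by 1.22%, SOX9 by 2.91%, KRT8 by 2.49%, CDX2 by 8.16%, MSH3 by 10.6% and HNF4A by 47.6% (CV over 3 libraries), so KRT8 varied more than the less abundant EREG. The median CV of detected members was 2.26% for proliferation genes, 3.06% for surface genes, 3.36% for mismatch repair genes, 9.64% for gut transcription factors and 10.5% for mesenchymal genes. In the same order the median level of members with a row was 102, 42.0, 24.0, 2.48 and 1.34 TPM. As CV falls with level, these values do not set the lists apart at equal level.

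**Figure D4:**
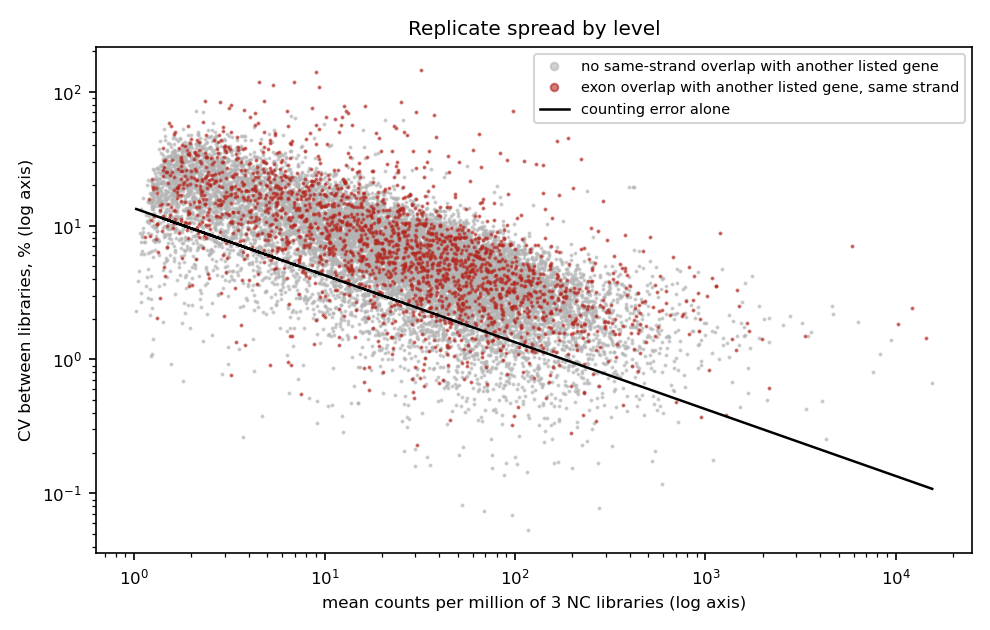
CV between the 3 NC libraries in percent (log axis) against mean CPM (log axis) for detected genes, in red where an exon overlaps one of another listed gene on the same strand, with the black line for counting error alone. The bulk of the points falls with level and stays above the line, and many of the points far above the bulk are red.

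Large differences between replicates gathered on genes that share exons with another gene. Of 9891 genes with at least 10 CPM in every library and a place in GENCODE v29, 15.2% overlap an exon of another listed gene on the same strand. A CV of at least 20% was seen in 83 of the 9891 genes, of which 48 (57.8%) overlap. As a share of each class that was 3.19% of overlapping genes and 0.417% of the others. The 10 genes of at least 10 CPM with the largest BCV were AP002990, AP001931, AC004057, AL121594, RPS10-NUDT3, RNF31, NME1-NME2, BCAP29, MATR3 (ENSG00000280987) and AL365205.

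In 4 of 5 sets of genes, the sum had a lower CV than each of its parts. The sets share exons, except BCAP29 with DUS4L-BCAP29, which were paired by name. MATR3, an RNA-binding protein of the nuclear matrix, is listed under 2 gene IDs. ENSG00000015479 had 169, 198 and 301 CPM in NC replicates 1, 2 and 3, and ENSG00000280987 had 223, 187 and 86.4 CPM. Their sum was 393, 384 and 388 CPM, and the CV went from 31.2% and 42.8% for the parts to 1.06% for the sum. EIF4A1, a helicase of translation initiation, had a CV of 5.81% and the readthrough gene SENP3-EIF4A1 28.3%, but their sum 1.30%. BCAP29 had 18.2, 18.7 and 41.01 CPM and DUS4L-BCAP29 26.5, 19.2 and 3.26 CPM, with a CV of 8.93% for the sum. The partner of BCAP29 by exon overlap in GENCODE v29 was WBP1LP2, and the sum with WBP1LP2 had a CV of 48.9%. NME1-NME2 had 217, 256 and 92.6 CPM (CV 45.3%) and NME2 a CV of 15.2%, and their sum had a CV of 9.18%, or 2.84% with NME1 added as well. RPS10 was the exception, with a CV of 2.25% alone and 4.93% in the sum with RPS10-NUDT3 (CV 53.7% alone). These sets were chosen and the sums formed after the values had been seen. Of the 60 genes of largest BCV with at least 10 CPM in every library, 33 had an overlap partner. In 29 of the 33 the sum over all partners had a lower CV than the gene alone. The median CV was 29.9% for the genes and 7.40% for the sums. TUT1 went the other way, with 28.0% alone and 52.3% in the sum. These genes were picked by their large spread, and the fall was not tested.

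**Figure D5:**
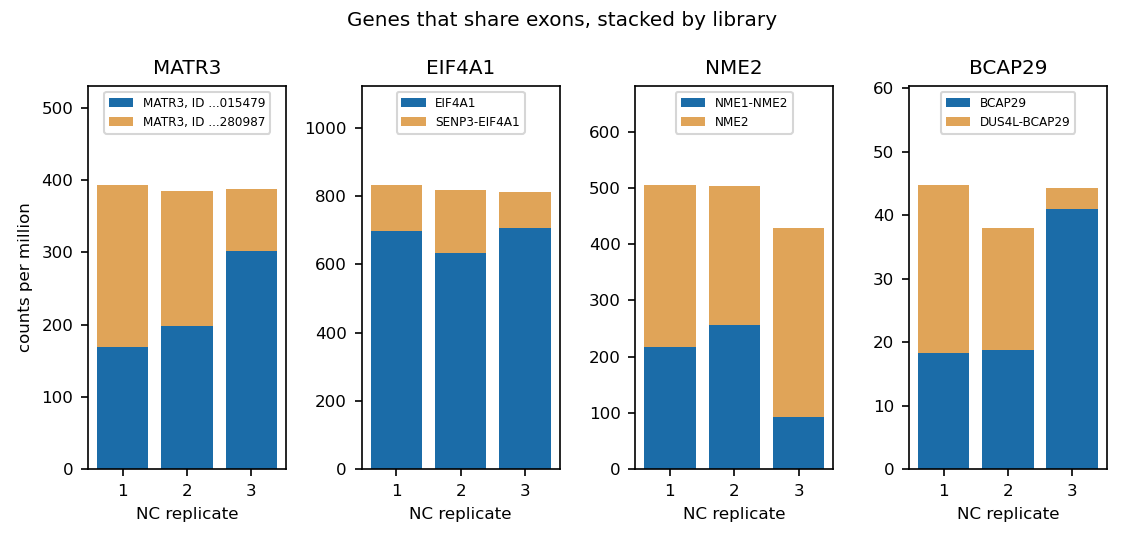
CPM of gene sets, stacked by NC replicate, on axes that start at 0. MATR3 under its 2 gene IDs and EIF4A1 and NME2 with their readthrough genes share exons, and BCAP29 was paired with DUS4L-BCAP29 by name. The MATR3 parts change from replicate to replicate while the stack stays between 384 and 393 CPM.

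A count of 0 in a single library has to be read with the same care. In 494 genes 1 library had 0 counts while both others had at least 10, and in 19 genes both others had at least 50. Of the 17 of these 19 that are in GENCODE v29, 15 overlap another gene on the same strand. Of the 462 of the 494 that are in it, 77 do, so most of the wider group share no exon in this way. AC006064 had 3854, 0 and 6075 counts, and CHD4, a chromatin remodeller that shares its exons, had 27682, 30303 and 26675 counts. Of all list members, 4 had 0 counts in 1 library and at least 20 in both others, namely CDH17, FZD9, RSPO1 and HOXD3, and none had at least 50 in both. CDH17, FZD9 and RSPO1 overlap no other listed gene on the same strand. Where all 3 libraries had 0 counts, counting error alone allows up to 0.0181 CPM over the 3 libraries (3 counts in their total). This limit covers counting error only and not how reads were assigned to genes.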

How the data were processed

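RNA of HCT116 cells was sequenced for the study by Lianchuan Biotechnology, and the table the authors deposited holds whole, unnormalized counts for 35817 Ensembl gene IDs and 9 libraries. Aligner, counting program, strand and annotation are not given in the sources used. The submitters' processing notes name hg19, but 1051 IDs are numbered above the last ID of GENCODE v29, so no position was taken from the counts. Without strand, reads of overlapping genes on opposite strands cannot be told apart. Of the listed IDs, 34766 were found by ID in GENCODE v29 (GRCh38), which gave gene types, exon lengths and same-strand overlaps. Such an overlap is not pointed out at every gene named. AXIN2, DDR1, ESRP2, ELF3, SPINT2, HLA-B and HLA-C are among the others that have one.

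Libraries were grouped by label, and the totals of the NC libraries were 54242901 to 55790505 counts, all kept. CPM used library totals, and TPM the length of all annotated exons of a gene with mitochondrial genes included (40.9% of the TPM total). BCV was estimated by edgeR 4.0.16 in R 4.3.3 on TMM-scaled counts of genes with at least 1 CPM in each library, after it had been tested on simulated data. Median-of-ratios factors came from DESeq2 1.42.0. No groups were compared, so no test was run.

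The members and the 29 gene lists (770 genes, 690 with a row) were chosen with earlier results of these data known. Named are the 10 genes of highest CPM, the 10 nuclear protein-coding genes of highest TPM, and per list up to 8 members of highest TPM, up to 6 under 1 CPM and those with a defining role. The 10 genes of largest BCV from 10 CPM on, the genes nearest the 1 CPM limit and the keratins above it are named too. Other genes were picked after their values had been seen: the overlapping partners of uneven genes, and list members named beyond those numbers. Some members that this rule would name are not reported here. Promoter windows came from RefSeq GRCh38.p14. They matched 76.9% of protein-coding genes, under the 80% set as a minimum, so a comparison of CpG content by level over all genes was void and is not given.

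The alternatives were minimum levels of 0.5 and 2 CPM, other scalings, the longest transcript as gene length, totals without mitochondrial genes and each NC library left out.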

Additional observations from a re-analysis of the deposited data

Results flagged for a closer look

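Gene IDs that are listed with counts but have no place in GENCODE v29 had no exon length, so no TPM and no list used them. They carried signal above the limit that a count of 0 allows, with a summed level of 620 CPM (mean of the 3 NC libraries) over 1051 IDs, or 0.0620% of the counts. Which transcripts these IDs stand for was not examined. Groups of 3 libraries are too small for the check of single samples that stand apart, so none was made.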

How the results depend on the processing

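The number of detected genes stayed within 1.5 times of 14077 under every setting tried, from 12866 with a minimum of 2 CPM to 15458 with 0.5 CPM, and it ran from 14286 to 14304 without one of the NC libraries. Detected list members numbered 434 of 690, with 409 at 2 CPM and 463 at 0.5 CPM, and 436 to 442 without one library. The common BCV was 10.0% and moved to 31.3% with no filter on low counts and to 6.03% with at least 10 CPM in every library. It was 8.22% over genes with no same-strand exon overlap, an alternative chosen after seeing the data, and 9.96% to 10.5% without one library. The 100 nuclear protein-coding genes of highest TPM took 13.5% of the counts of such genes, 13.4% with the length of the longest transcript, and 13.5% to 13.6% without one library. Over 36 named genes, TPM with the longest transcript was 0.807 to 1.97 times the value given, and without mitochondrial genes 1.69 times for each. With the longest transcript, also chosen after seeing the data for this pair, KRT19 minus KRT8 turned from 154 to -257 TPM because KRT8 has many more annotated exon bases than its longest transcript holds. No paired analysis was possible because only 1 group was described.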
